A study of Homo sapiens with 6 samples.

Results

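The transcripts of the mitochondrial genome were followed in azacitidine-resistant and azacitidine-sensitive K562 cells. All 37 genes with a symbol starting MT- on the mitochondrial chromosome were taken, of 61487 genes counted: 13 mRNAs, 2 ribosomal RNAs (rRNAs) and 22 transfer RNAs (tRNAs). K562 is a human chronic myeloid leukaemia line that carries the BCR-ABL1 fusion, and azacitidine is a cytidine analogue that enters RNA and DNA. The 3 resistant libraries came from a population of the line kept for months in rising drug concentrations, and the 3 sensitive libraries from the line without that selection. Both were grown in the same RPMI medium with serum, and the labels list no other allele or agent and do not say whether the resistant population is a clone. Every library name, resistant and sensitive, ends in NT, a part that the sample titles do not explain. The titles also do not say whether azacitidine was present at harvest. Total RNA was depleted of ribosomal RNA and sequenced as stranded pairs, and the deposited values are raw counts per gene.

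Human mitochondrial DNA is a small circle read almost end to end from both strands by the RNA polymerase POLRMT. The long transcripts are cut at the tRNAs that lie between the other genes, and the LRPPRC-SLIRP complex then stabilises most mRNAs. The mRNAs encode core subunits of respiratory complexes I, III and IV and of the ATP synthase (complex V), and the rRNAs and tRNAs serve the mitochondrial ribosome that translates them. Of the genes, 12 mRNAs, both rRNAs and 14 tRNAs belong to the heavy strand transcript. MT-ND6 and 8 tRNAs belong to the light strand transcript.

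Total counts ranged from 33007642 to 37991708 in resistant and from 34924828 to 43006918 in sensitive libraries. All 11 K562 markers had counts, with summed levels of 1496 to 1956 CPM (counts scaled to library size with TMM factors) in resistant and 1089 to 1953 CPM in sensitive libraries. TFRC alone had 734 ± 193 and 624 ± 499 CPM, and HBE1 had 24 counts in resistant and 2 in sensitive libraries. By edgeR 2 of the 10 K562 markers tested were higher (20%; BCR and ABL1) and 1 lower (10%; LMO2), beside 9.83% and 13.1% of all genes. Leaving out single libraries ended each of these calls (edgeR adjusted p up to 0.0923). Of 12 markers of other cell types, 11 had counts, MS4A1 was at 0, and the sum was 132 to 152 CPM in resistant and 202 to 355 CPM in sensitive libraries. By edgeR 5 of the 10 tested were lower (50%) and 2 higher (20%), beside 13.1% and 9.83% of all genes. CD3D had 1.95 ± 0.396 CPM in resistant and 47.3 ± 41.8 CPM in sensitive cells and LYZ 5.65 ± 1.01 and 53.6 ± 21.9 CPM. CDH1 rose, with 6.88 ± 3.28 and 0.0460 ± 0.0190 CPM, while EPCAM had 104 ± 16.5 and 119 ± 10.8 CPM and was not called. Among collagens, COL1A2 rose (5.51 ± 1.32 and 0.324 ± 0.276 CPM). COL3A1 fell (0.0702 ± 0.0302 and 0.811 ± 0.717 CPM), and COL1A1 was not called (0.455 ± 0.277 and 1.10 ± 0.737 CPM; SD, n = 3 each). Small nucleolar RNA took 0.130%, 0.135% and 0.252% of counts in resistant replicates 1, 2 and 3, against 0.439%, 0.656% and 0.729% in sensitive replicates 1, 2 and 3. The nuclear RNA MALAT1 took 0.799%, 0.511% and 0.379% in resistant against 0.325%, 0.370% and 0.166% in sensitive libraries. Their part in the results below was not tested.

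Mitochondrial transcripts took 19.0%, 17.6% and 8.99% of all counts in resistant replicates 1, 2 and 3, against 14.6%, 16.9% and 13.5% in sensitive replicates 1, 2 and 3. Resistant replicate 3 lay below every other library and resistant replicates 1 and 2 above, so the groups overlapped. The 13 mRNAs together took 1.13%, 0.824% and 0.442% in resistant and 0.646%, 0.664% and 0.640% in sensitive libraries. The sensitive libraries were nearly alike in this share, while the resistant libraries lay on both sides of them. In bulk RNA, fewer cells with a given level and less RNA per cell cannot be told apart.

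Of the 37 genes, 17 passed the filter on low counts: all 13 mRNAs, both rRNAs and the tRNAs MT-TP and MT-TY. With edgeR's quasi-likelihood test, fitted over 20891 genes, 1 of the 17 fell in resistant cells and 0 rose at a Benjamini-Hochberg adjusted p below 0.05. Over all genes tested, 13.1% were called lower and 9.83% higher. MT-TP was also the 1 member with an unadjusted p below 0.05, a level that 35.9% of all genes reached. DESeq2 (10.9% of all genes lower, 8.56% higher) and limma-voom (12.9% lower, 9.25% higher) each called MT-TP lower and 0 members higher. The median log2 fold change of the 17 was 0.25, beside 0.03 for all genes tested. The groups did not overlap for 2 of the 17, MT-CO3 and MT-TP, both lower in resistant cells, where 21.4% of all genes tested had resistant libraries wholly below and 18.7% wholly above the sensitive ones.

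The absence of higher calls depended on the filter on low counts and on resistant replicate 3, the lowest resistant library for all 13 mRNAs. Without that library, edgeR called 7 members higher and 1 lower, beside 14.8% and 16.5% of all genes tested. The 7 were MT-RNR1, MT-CO1, MT-CO2, MT-ATP6, MT-ND4L, MT-ND4 and MT-CYB. The same 7 were higher, and MT-TP lower, when sensitive replicate 3 was left out as well, where 21.2% of all genes were called higher and 22.9% lower (a setting added with the values known). With no filter on low counts, 5 members were called higher (MT-CO2, MT-ATP6, MT-ND4L, MT-ND4 and MT-CYB) and 2 lower (MT-TP and MT-ND6), beside 7.05% and 8.81% of all genes. MT-TP alone was called, as lower, with DESeq2 size factors (12.7% of all genes lower, 9.99% higher), upper quartile factors (12% each), library totals alone (10.1% lower, 14.6% higher) and scaling without the mitochondrial genes (12.7% lower, 10.4% higher). The same held without resistant replicate 2 (7.76% lower, 4.86% higher) and without sensitive replicate 1 (8.51% lower, 4.84% higher), 2 (8.58% lower, 5.29% higher) or 3 (12.2% lower, 8.23% higher). Without resistant replicate 1, MT-TP and MT-ND6 were lower (9.94% of all genes lower, 6.3% higher). Relative to mitochondrial mRNA 0 members were called in either direction (6.9% of all genes lower, 4.54% higher).

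**Figure D1:**
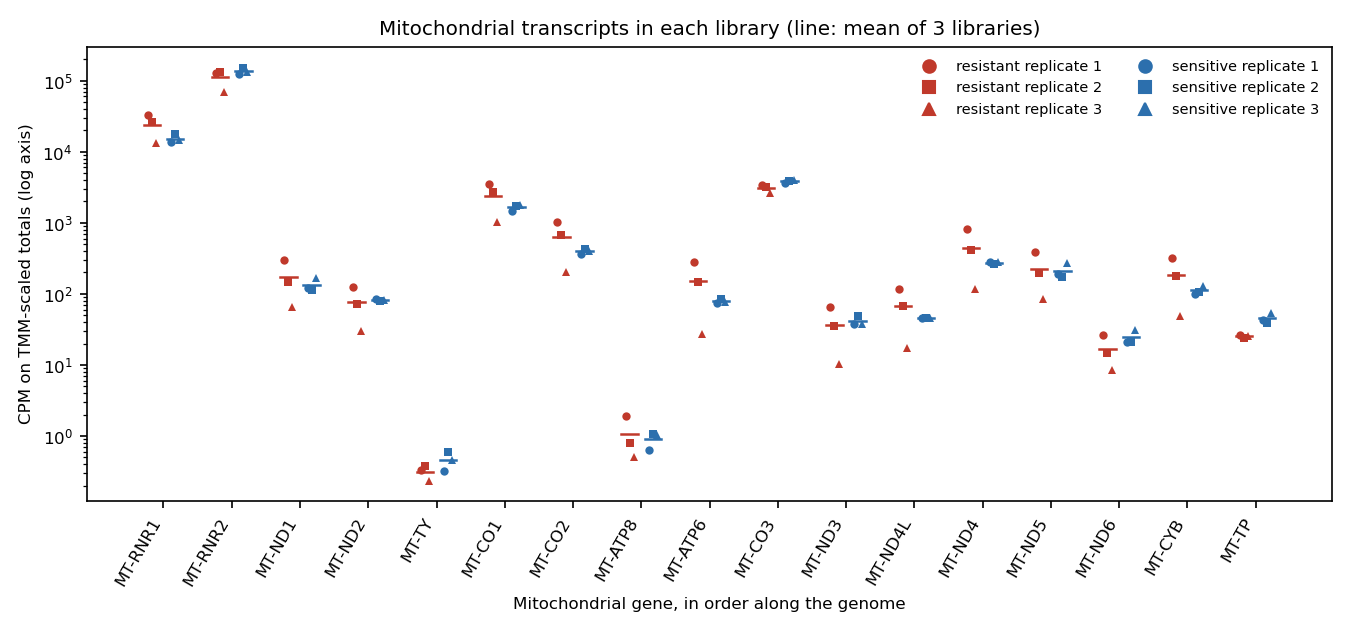
Level of the 17 tested mitochondrial genes in each library, as CPM on TMM-scaled totals on a log axis, in order along the genome. Red symbols are resistant and blue symbols sensitive libraries, circles, squares and triangles are replicates 1, 2 and 3, and lines are means of 3 libraries; resistant replicate 3 is the lowest resistant library for all 13 mRNAs.

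The tRNA for proline, MT-TP, was the member that fell. It lies on the light strand at chrM:15956-16023 (GRCh38, positions from GENCODE 29), beside the non-coding control region. It had 944, 951 and 982 counts in the resistant libraries, against 1738, 1274 and 2022 counts in the sensitive libraries. Its level was 26.1, 23.9 and 25.8 CPM in resistant and 42.5, 38.3 and 54.2 CPM in sensitive libraries, so every resistant library lay below every sensitive one. MT-TP averaged 25.3 ± 1.19 CPM in resistant and 45.0 ± 8.22 CPM in sensitive cells (SD, n = 3 each). This made a log2 fold change of −0.83 ± 0.17 (SE; edgeR adjusted p = 0.00613). With each library left out in turn it stayed between −0.96 and −0.69, with edgeR adjusted p from 0.00708 to 0.0492. Scaled to the sum of the 13 mitochondrial mRNAs in place of all genes, the log2 fold change was −0.74 and the call was lost (edgeR adjusted p = 0.462).

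MT-TP held 7911 of the counts on tRNA genes, and the other 21 tRNAs held 27, 32 and 24 counts in the resistant and 29, 40 and 39 counts in the sensitive libraries. Mature tRNAs are short and heavily modified, and standard libraries recover them poorly. The 5 tRNAs with at least 10 counts in all are printed, since all are of the light strand transcript and they hold nearly every tRNA count. Sequences are those of the GENCODE 29 transcripts (GRCh38, minus strand), 5′ to 3′ as in the RNA, with the anticodon in capitals.
MT-TP (proline, chrM:15956-16023): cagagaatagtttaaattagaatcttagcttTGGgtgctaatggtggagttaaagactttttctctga
MT-TY (tyrosine, chrM:5826-5891): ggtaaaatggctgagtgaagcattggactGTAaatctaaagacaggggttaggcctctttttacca
MT-TC (cysteine, chrM:5761-5826): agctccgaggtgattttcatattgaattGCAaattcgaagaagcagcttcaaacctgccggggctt
MT-TN (asparagine, chrM:5657-5729): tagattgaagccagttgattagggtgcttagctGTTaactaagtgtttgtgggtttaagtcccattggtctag
MT-TA (alanine, chrM:5587-5655): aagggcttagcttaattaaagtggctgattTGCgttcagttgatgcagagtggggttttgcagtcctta

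MT-TY, the tRNA for tyrosine, had 12, 15 and 9 counts in resistant and 13, 20 and 17 counts in sensitive libraries, groups that overlapped. The MT-TY log2 fold change of −0.53 ± 0.51 (SE) did not pass (edgeR adjusted p = 0.496). The cysteine, asparagine and alanine tRNAs, its neighbours in a light strand cluster, had 50, 38 and 10 counts over all 6 libraries. MT-TE had 1 count and MT-TF, the 1 heavy strand tRNA with any, had 6. The remaining 15 tRNAs had none, which allows up to 0.0733 to 0.0902 CPM in a library (3 counts, counting error only). MT-TQ and MT-TS1, also of the light strand, were among the 15. Distance to the nearest light strand gene gave no order: it was 1186 bases for MT-TQ and 1554 for MT-TS1, 1213 for MT-TP with its 7911 counts, and 0 for MT-TE with 1 count.

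The small ribosomal RNA of the mitochondrial ribosome, MT-RNR1 (12S, chrM:648-1601), measured 33080, 25990 and 13270 CPM in resistant and 13610, 17800 and 14430 CPM in sensitive libraries. Resistant replicates 1 and 2 lay above all sensitive libraries and resistant replicate 3 below them. The log2 fold change of MT-RNR1 was 0.66 ± 0.36 (SE; edgeR adjusted p = 0.218), and 0.93 without resistant replicate 3 (edgeR adjusted p = 0.0259). The large ribosomal RNA, MT-RNR2 (16S, chrM:1671-3229), measured 129900, 134100 and 68890 CPM in resistant and 125200, 152600 and 133200 CPM in sensitive libraries. Here resistant replicates 1 and 2 lay within the sensitive range, and resistant replicate 3 lay below it. The log2 fold change of MT-RNR2 was −0.30 ± 0.36 (SE; edgeR adjusted p = 0.588).

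The balance of the 2 rRNAs separated the groups in all libraries, resistant replicate 3 included. The ratio of MT-RNR2 to MT-RNR1 counts was 3.93, 5.16 and 5.19 in resistant and 9.20, 8.58 and 9.23 in sensitive libraries, without overlap. It averaged 4.76 ± 0.721 in resistant and 9.003 ± 0.369 in sensitive cells (SD, n = 3 each), a difference of −0.93 on the log2 scale. By an exact permutation test, two-sided, p was 0.1, which is the lowest value possible with 3 libraries in each group, and 0.133 after adjustment over the 4 ratios computed. A ratio within a library does not depend on the scaling between libraries, but it does not say which of the 2 rRNAs changed, and both were measured after ribosomal RNA depletion, whose part in the ratio was not tested.

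Against the mRNA of cytochrome oxidase subunit 1, MT-CO1, which lies further along the same transcript, MT-RNR2 also stood lower in each resistant library. The ratio of MT-RNR2 to MT-CO1 counts was 37.4, 49.5 and 66.9 in resistant and 84.5, 90.0 and 74.0 in sensitive libraries. The groups did not overlap, with resistant replicate 3 nearest to the sensitive libraries, a log2 difference of −0.73 and the same exact permutation p of 0.1 (0.133 adjusted). Both ratios share MT-RNR2 and are not separate observations. How often ratios of other gene pairs separate the groups was not computed. For levels of single genes, resistant libraries lay wholly below for 21.4% and wholly above for 18.7% of all genes tested. As a check along the heavy strand, the ratio of MT-ND1, close to the promoter, to MT-CYB, far from it, was 0.932, 0.829 and 1.32 in resistant and 1.205, 1.04 and 1.27 in sensitive libraries. These overlapped, with a log2 difference of −0.22 and an exact permutation p of 0.4.

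MT-ND6 (chrM:14149-14673), the complex I subunit mRNA of the light strand, measured 26.4, 14.6 and 8.47 CPM in resistant and 20.99, 20.98 and 31.3 CPM in sensitive libraries. The log2 fold change of MT-ND6 was −0.57 ± 0.36 (SE; edgeR adjusted p = 0.285), and −1.08 without resistant replicate 1, where it was called (edgeR adjusted p = 0.0292). Relative to MT-CYB, which lies close by on the other strand, it stood lower in every resistant library. The ratio of MT-ND6 to MT-CYB counts was 0.0815, 0.0819 and 0.172 in resistant and 0.211, 0.196 and 0.240 in sensitive libraries. The log2 difference was −1.04, with an exact permutation p of 0.1 (0.133 adjusted). In resistant replicates 1 and 2, MT-ND6 stood at 1.08 and 0.596 times the sensitive mean, and MT-CYB at 2.89 and 1.58 times.

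**Figure D2:**
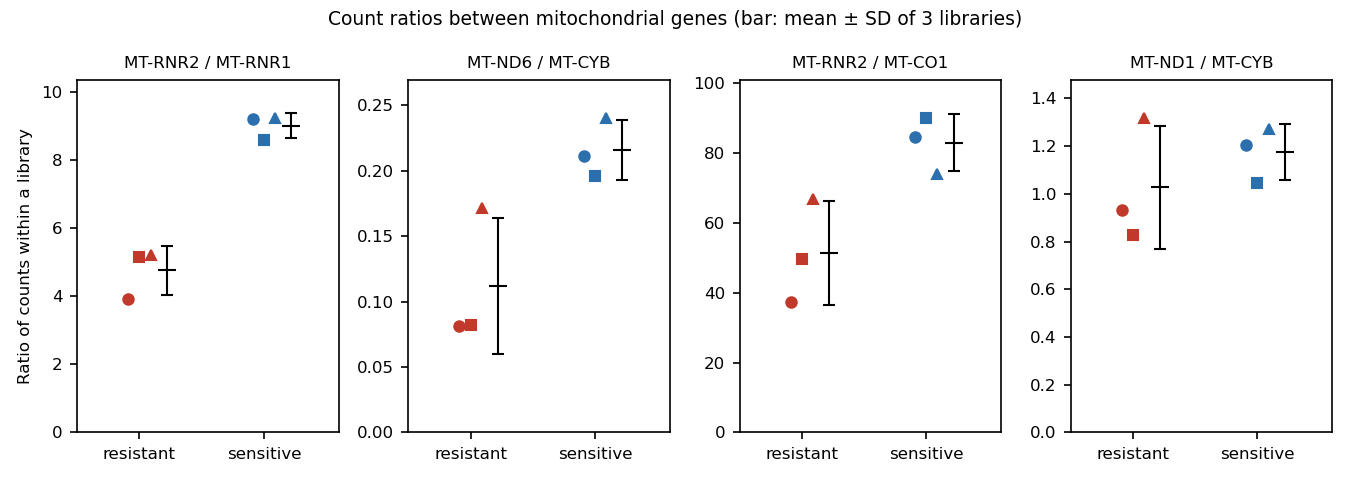
Ratios of counts between pairs of mitochondrial genes within each library. Circles, squares and triangles are replicates 1, 2 and 3 of the resistant (red) and sensitive (blue) cells, and bars are mean ± SD of 3 libraries. The groups do not overlap in the first 3 panels, of which 2 share MT-RNR2, and MT-ND1 to MT-CYB overlaps.

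Complex IV, cytochrome oxidase, transfers electrons to oxygen, and its 3 subunits encoded here made up 76.3%, 83.9% and 90.3% of mitochondrial mRNA counts in resistant and 85.1%, 86.6% and 84.9% in sensitive libraries. MT-CO3 (chrM:9207-9990) had the smallest spread of any mRNA among resistant libraries, at 3406, 3229 and 2606 CPM in resistant and 3607, 3911 and 4055 CPM in sensitive libraries. All resistant libraries lay below all sensitive ones, but the log2 fold change of −0.32 ± 0.22 (SE) did not pass (edgeR adjusted p = 0.328). MT-CO1 (chrM:5904-7445) measured 3476, 2706 and 1030 CPM in resistant and 1482, 1696 and 1801 CPM in sensitive libraries. MT-CO2 (chrM:7586-8269) measured 1010, 665 and 200.5 CPM in resistant and 365, 429 and 407 CPM in sensitive libraries. For both, resistant replicates 1 and 2 lay above and resistant replicate 3 below all sensitive libraries, with log2 fold changes of 0.53 ± 0.38 and 0.64 ± 0.45 (SE; edgeR adjusted p = 0.345 and 0.335).

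The make-up of the mRNA pool therefore varied among resistant libraries. MT-CO3 took 32.9%, 41.0% and 61.4% of mitochondrial mRNA counts in resistant and 56.3%, 56.1% and 55.0% in sensitive libraries. MT-CO1 took 33.6%, 34.4% and 24.2% in resistant and 23.1%, 24.3% and 24.4% in sensitive libraries. Resistant replicates 1 and 2 thus held less MT-CO3 and more MT-CO1 than any sensitive library, and resistant replicate 3 more MT-CO3 than any.

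Complex V uses the proton gradient to make ATP, and its 2 mitochondrial subunits are read from 1 mRNA with overlapping frames. MT-ATP6 (chrM:8527-9207) measured 284, 145 and 27.6 CPM in resistant and 74.1, 83.7 and 76.6 CPM in sensitive libraries. This was the largest spread among the resistant libraries of any member, 10.3-fold from resistant replicate 1 to resistant replicate 3, where the highest and lowest sensitive libraries differed 1.13-fold. The log2 fold change of MT-ATP6 was 0.96 ± 0.59 (SE; edgeR adjusted p = 0.274), 1.43 without resistant replicate 3 (edgeR adjusted p = 0.00227) and 0.15 without resistant replicate 1 (edgeR adjusted p = 0.884). MT-ATP8 (chrM:8366-8572) had 69, 32 and 19 counts in resistant and 26, 35 and 38 counts in sensitive libraries, with a log2 fold change of 0.25 ± 0.53 (SE; edgeR adjusted p = 0.775).

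The 46 bases that MT-ATP8 and MT-ATP6 share are shown because reads on them belong to both genes, and how the counting treated them is not given in the sources used here. The start codon of MT-ATP6 is in capitals.
MT-ATP8 and MT-ATP6 (chrM:8527-8572, GRCh38, plus strand): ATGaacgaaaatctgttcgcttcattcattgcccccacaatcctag

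Complex III was represented by MT-CYB (chrM:14747-15887), cytochrome b, at 325, 178 and 49.3 CPM in resistant and 99.5, 107 and 130.3 CPM in sensitive libraries. Resistant replicates 1 and 2 were above and resistant replicate 3 below all sensitive libraries. The log2 fold change of MT-CYB was 0.71 ± 0.50 (SE; edgeR adjusted p = 0.340), and 0.02 without resistant replicate 1.

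Complex I oxidises NADH and has 7 subunits encoded in this genome. Their mRNAs took 17.8%, 12.02% and 7.87% of mitochondrial mRNA counts in resistant and 12.2%, 10.6% and 12.3% in sensitive libraries. MT-ND4 (chrM:10760-12137) measured 814, 409 and 118 CPM in resistant and 283, 261 and 276 CPM in sensitive libraries. MT-ND4L (chrM:10470-10766), on the same mRNA, measured 118, 67.2 and 17.2 CPM in resistant and 45.7, 45.8 and 45.5 CPM in sensitive libraries. These partners moved together, with log2 fold changes of 0.71 ± 0.51 and 0.57 ± 0.50 (SE; edgeR adjusted p = 0.355 and 0.452).

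MT-ND1 (chrM:3307-4262) measured 302.5, 147 and 65.0 CPM in resistant and 120, 112 and 166 CPM in sensitive libraries, with resistant replicate 2 inside the sensitive range. MT-ND2 (chrM:4470-5511) measured 124, 73.0 and 30.4 CPM in resistant and 85.8, 78.2 and 82.3 CPM in sensitive libraries. MT-ND3 (chrM:10059-10404) measured 64.7, 35.7 and 10.5 CPM in resistant and 37.1, 48.5 and 38.0 CPM in sensitive libraries. For MT-ND2 and MT-ND3, resistant replicate 1 was the sole library above the sensitive range and the 2 others lay below it. MT-ND5 (chrM:12337-14148) measured 393, 199 and 85.4 CPM in resistant and 190, 172 and 268 CPM in sensitive libraries, again on both sides. The log2 fold changes were 0.37 for MT-ND1, −0.11 for MT-ND2, −0.16 for MT-ND3 and 0.11 for MT-ND5, with edgeR adjusted p from 0.579 to 0.887. The signs of MT-ND2 and MT-ND3 turned with scaling by library totals alone (0.07 and 0.03), and that of MT-ND5 turned when scaled to mitochondrial mRNA (−0.12) and with limma-voom (−0.13).

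Across the mRNAs, resistant replicate 1 was the highest and resistant replicate 3 the lowest resistant library for 13 of 13. Resistant replicate 3 lay below all sensitive libraries for 13 of 13, and resistant replicate 1 above all of them for 11 of 13, MT-CO3 and MT-ND6 excepted. The highest and lowest resistant libraries differed by a median of 4.65-fold over the 13 mRNAs, against 1.22-fold among sensitive libraries. Over the 9086 genes with a mean of at least 10 CPM the same medians were 1.33-fold in resistant and 1.27-fold in sensitive libraries, and resistant replicate 3 was the lowest resistant library for 30.0% of them. From resistant replicate 1 to resistant replicate 3 the ratio ran from 1.31-fold for MT-CO3 to 6.93-fold for MT-ND4 and 10.3-fold for MT-ATP6, and it was 2.49-fold for MT-RNR1, 1.89-fold for MT-RNR2 and 1.02-fold for MT-TP. Over the 15 rRNAs and mRNAs this ratio had a Spearman correlation of −0.33 with the level per kilobase in sensitive cells and −0.18 with length, across genes that share the same 6 libraries.

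**Figure D3:**
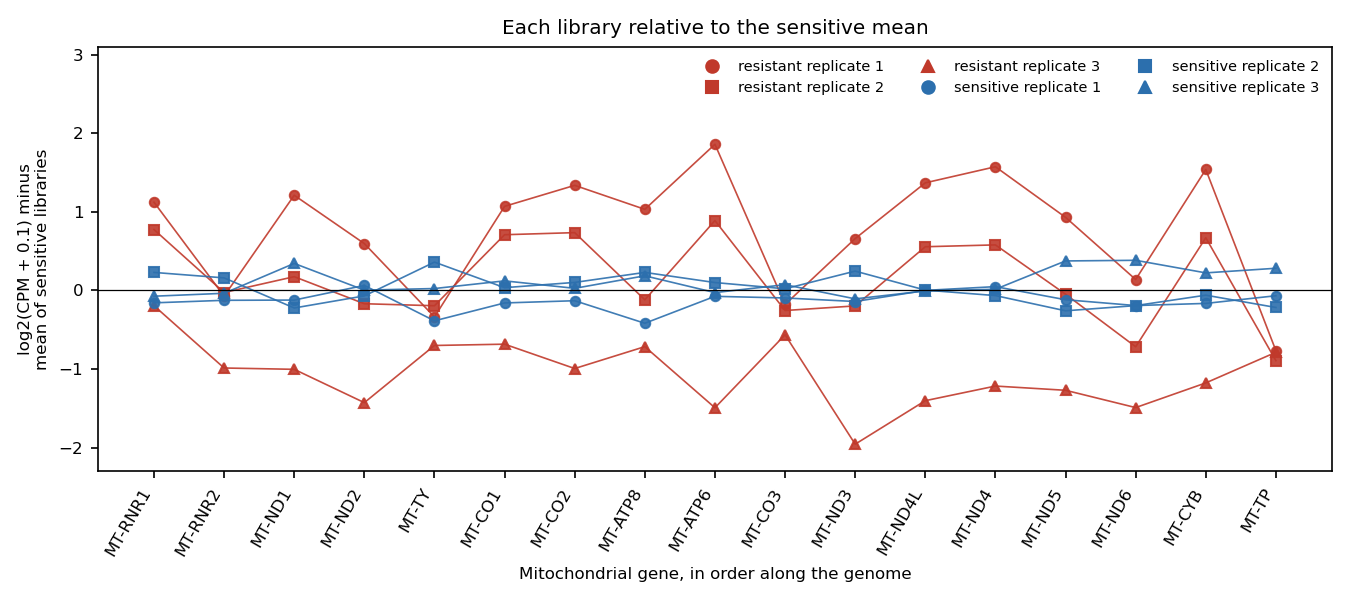
Each library's log2(CPM + 0.1) minus the mean of the sensitive libraries, for the 17 tested genes in order along the genome. Red lines are resistant and blue lines sensitive libraries, with circles, squares and triangles for replicates 1, 2 and 3; resistant replicates 1 and 3 lie far apart for most mRNAs, and the 3 resistant libraries meet below 0 at MT-TP.

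Per kilobase, the order of levels was led by the rRNAs, whose values are what remained after ribosomal RNA depletion: MT-RNR2, at 71170 ± 23410 CPM per kilobase in resistant and 87900 ± 9044 in sensitive cells (SD, n = 3 each), followed by MT-RNR1 at 25280 ± 10520 and 16020 ± 2324. The leading mRNAs were MT-CO3 at 3929 ± 536 in resistant and 4921 ± 292 in sensitive cells, MT-CO1 at 1559 ± 811 and 1076 ± 106, and MT-CO2 at 914 ± 594 and 585 ± 47.6. The lowest were MT-ND2 at 72.8 ± 45.0 in resistant and 78.8 ± 3.64 in sensitive cells, MT-ND6 at 31.4 ± 17.4 and 46.6 ± 11.4, and MT-ATP8 at 5.17 ± 3.59 and 4.36 ± 1.117. Between them, in sensitive cells, MT-ND4 (198 ± 8.003), MT-ND4L (154 ± 0.603) and MT-ND1 (139 ± 30.4) were followed by MT-ND3, MT-ND5, MT-ATP6 and MT-CYB from 119 to 98.4, neighbours that did not differ beyond their spread. In resistant cells the spread between libraries covered most of the mRNA order below MT-CO1.

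Human chromosomes carry old copies of mitochondrial sequence, and reads that match a copy as well as the mitochondrial gene can be lost or split. Of 417 rows named as such copies, 137 had counts and 13 had at least 100 in all. A stretch of chromosome 1 holds near-identical copies of several genes. MTATP6P1 (chr1:633696-634376) differs from MT-ATP6 at 10 of 681 positions. It is shown beside MT-ATP6 over the 80 bases where they differ most often, from base 113 to base 192 of the gene, with the 4 differing positions in capitals.
MT-ATP6 (chrM:8639-8718, GRCh38, plus strand): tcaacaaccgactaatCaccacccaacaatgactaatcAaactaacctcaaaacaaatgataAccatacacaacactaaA
MTATP6P1 (chr1:633808-633887, GRCh38, plus strand): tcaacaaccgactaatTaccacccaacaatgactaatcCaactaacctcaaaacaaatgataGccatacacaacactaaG

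MTATP6P1 had 1950, 1156 and 207 counts in resistant and 649, 520 and 697 counts in sensitive libraries, the same order of libraries as MT-ATP6 within the resistant group. Its counts were 19.0%, 20.1% and 19.6% of those of MT-ATP6 in resistant and 21.4%, 18.7% and 24.4% in sensitive libraries, a near-constant share while MT-ATP6 itself varied 10.3-fold. MTCO1P12, the copy of MT-CO1 (98.6% identical), stood at 0.282% to 0.420% of its gene in resistant and 0.324% to 0.370% in sensitive libraries. The most counted copy, MTRNR2L12 on chromosome 3, had 2749, 3164 and 984 counts in resistant and 3538, 3449 and 3583 in sensitive libraries. Windows of 100 bases found letter for letter in another GENCODE 29 transcript made up 27.9% of MT-CO1, 26.1% of MT-ND2, 11.9% of MT-ATP6, 10.97% of MT-ND1, 4.38% of MT-CO3 and 2.39% of MT-CO2, and 0% of the other mRNAs and rRNAs. Levels of these 6 genes, and their order, are uncertain for that reason. Windows with mismatches were not searched, so a share of 0% does not make the other levels certain. Of 20 copies tested, 3 were higher (15%; MTRNR2L3, MTCO1P11 and MTND1P9) and 1 lower (5%; MTCO3P12), beside 9.83% and 13.1% of all genes. Each of these calls was lost without single libraries (edgeR adjusted p up to 0.196). With the counts of each copy added to its gene, a setting also added later, 1 member was again called lower and 0 higher. The log2 fold change of MT-ATP8 then went from 0.25 to 0.29 and that of MT-ND6 from −0.57 to −0.55.

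The machinery of mitochondrial gene expression was described by counts alone, beside the 9.83% of all genes called higher and 13.1% called lower. Of 23 genes that copy and transcribe mitochondrial DNA, 2 rose (8.7%) and 2 fell (8.7%), shares at or below those of all genes, with a median log2 fold change of 0.11. POLG, the catalytic subunit of the mitochondrial DNA polymerase, measured 74.0, 72.2 and 78.4 CPM in resistant and 47.3, 51.8 and 42.0 CPM in sensitive libraries. The groups did not overlap, where 18.7% of all genes tested had resistant libraries wholly above. Its log2 fold change was 0.67 ± 0.14 (SE; edgeR adjusted p = 0.00814), and the adjusted p was 0.0505 when sensitive replicate 1 was left out. ATAD3A, an inner membrane protein bound to mitochondrial nucleoids, rose by 0.90 ± 0.19 on the log2 scale (edgeR adjusted p = 0.00681). The 2 that fell were PRIMPOL and LONP1, with log2 fold changes of −0.96 and −0.64 (edgeR adjusted p = 0.0127 and 0.0284). Both of these calls were lost without resistant replicate 2. POLRMT measured 70.7, 64.2 and 81.0 CPM in resistant and 74.2, 60.6 and 61.2 CPM in sensitive libraries and did not pass (edgeR adjusted p = 0.563).

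The transcription factors of the mitochondrial promoters stood highest in replicate 3 of both groups. TFAM, which bends promoter DNA and packages the genome, measured 104, 124 and 204 CPM in resistant and 138, 137 and 212 CPM in sensitive libraries. TFB2M, the promoter-melting factor, measured 22.2, 26.1 and 48.9 CPM in resistant and 32.5, 34.3 and 68.0 CPM in sensitive libraries. For the mitochondrial mRNAs, resistant replicate 3 was the lowest resistant library. Neither passed (edgeR adjusted p = 0.691 and 0.364), nor did TFB1M, a methyltransferase of 12S rRNA (22.1 ± 1.69 CPM in resistant and 27.8 ± 6.54 CPM in sensitive cells, edgeR adjusted p = 0.240). TFB2M was lower in each resistant library than in the sensitive library of the same number. The groups overlapped, however, and the numbers were not taken to pair the libraries. It was called lower without both libraries numbered 3 (log2 fold change −0.48, edgeR adjusted p = 0.00785), a setting added with the values known, where 22.9% of all genes were lower. The same held without resistant replicate 3 alone (−0.92, 0.0460, 16.5% of all genes lower) and with a replicate block (−0.47, 0.0189, 17.1% of all genes lower).

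Of 24 genes for processing and decay of mitochondrial RNA, 0 rose and 3 fell by edgeR (12.5%, near the 13.1% of all genes), with a median log2 fold change of 0.16. LRPPRC measured 750, 757 and 862 CPM in resistant and 655, 656 and 989 CPM in sensitive libraries, and SLIRP measured 34.4, 42.3 and 82.4 CPM in resistant and 35.0, 38.4 and 62.7 CPM in sensitive libraries. Their groups overlapped (edgeR adjusted p = 0.909 and 0.662), with replicate 3 the highest in each group. The 3 that fell were ANGEL2 (a 2′,3′-cyclic phosphatase), the mitochondrial oligoribonuclease REXO2 and FASTKD1, by 0.51 to 0.58 on the log2 scale, calls that leaving out single libraries ended (edgeR adjusted p up to 0.196). Of 29 genes for modification of mitochondrial RNA, 3 rose (TRMT1, TRNT1 and PUS1; 10.3%, near the 9.83% of all genes) and 0 fell, and each of these calls was also lost without single libraries (edgeR adjusted p up to 0.159). NSUN4, which methylates 12S rRNA, measured 44.9, 44.1 and 49.3 CPM in resistant and 45.3, 51.8 and 51.1 CPM in sensitive libraries (edgeR adjusted p = 0.652).

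Of 23 mitochondrial aminoacyl-tRNA synthetases, 2 rose (8.7%, near the 9.83% of all genes) and 0 fell. WARS2, which charges the tRNA for tryptophan, measured 34.9, 39.5 and 50.3 CPM in resistant and 20.8, 19.8 and 24.1 CPM in sensitive libraries (log2 fold change 0.95 ± 0.18 SE, edgeR adjusted p = 0.00438). Of 21 translation factors, 0 rose and 1 fell (4.76%, below the 13.1% of all genes), the ribosome assembly GTPase NOA1, at 26.2, 33.7 and 37.2 CPM in resistant and 62.3, 57.4 and 64.8 CPM in sensitive libraries (edgeR adjusted p = 0.00328). Of 82 mitochondrial ribosomal proteins tested, 3 rose (3.66%) and 4 fell (4.88%), below the 9.83% and 13.1% of all genes. Without both libraries numbered 3 there were 8 higher and 25 lower of 82, where 21.2% and 22.9% of all genes were called. MRPL10 had the smallest adjusted p of the 82 (log2 fold change −0.71 ± 0.14 SE, edgeR adjusted p = 0.00560).

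Genes that supply nucleotides for mitochondrial DNA had the largest share called lower of the 10 lists for mitochondrial function. Of 18 tested, 7 fell (38.9%) and 0 rose by edgeR, beside 13.1% lower and 9.83% higher over all genes, with a median log2 fold change of −0.48. Without both libraries numbered 3 there were 11 lower and 1 higher of 18, where 22.9% of all genes were lower and 21.2% higher. NT5M, the mitochondrial deoxyribonucleotidase, measured 8.89, 8.17 and 9.36 CPM in resistant and 34.9, 28.1 and 19.0 CPM in sensitive libraries. The adenylate kinase AK4 measured 16.7, 15.1 and 17.2 CPM in resistant and 31.9, 34.4 and 32.2 CPM in sensitive libraries. MPV17, an inner membrane protein whose loss depletes mitochondrial DNA, measured 28.3, 26.6 and 29.2 CPM in resistant and 46.3, 44.8 and 53.1 CPM in sensitive libraries. These 3 had the smallest adjusted p of the list, with log2 fold changes of −1.63, −1.01 and −0.78 (edgeR adjusted p = 8.25e-04, 0.00109 and 0.00398). The groups did not overlap for any of the 3, where 21.4% of all genes tested lay wholly below. Since the 3 were picked by adjusted p, the lack of overlap adds no further support. TK2, the mitochondrial thymidine kinase, had a log2 fold change of −0.80 (edgeR adjusted p = 0.0275), a call lost without resistant replicate 1 (0.0816), resistant replicate 2 (0.0627), sensitive replicate 2 (0.0696) or sensitive replicate 3 (0.0727).

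Among 12 regulators of mitochondrial biogenesis tested, 3 rose and 3 fell (25% each, beside 9.83% higher and 13.1% lower of all genes). PPRC1, a coactivator related to PGC-1alpha, measured 54.0, 35.3 and 29.3 CPM in resistant and 16.6, 20.7 and 18.0 CPM in sensitive libraries (edgeR adjusted p = 0.00705). HCFC1, a transcriptional cofactor, measured 207, 129 and 64.7 CPM in resistant and 42.7, 50.3 and 33.9 CPM in sensitive libraries (edgeR adjusted p = 0.00816). Both were highest in resistant replicate 1 and lowest of the resistant in replicate 3, the order of the mitochondrial mRNAs within the resistant group. Unlike those mRNAs, both stayed above every sensitive library in resistant replicate 3. Resistant replicate 3 was the lowest resistant library for 30.0% of all genes with a mean of at least 10 CPM. BCR (268, 229 and 188 CPM in resistant replicates 1, 2 and 3) and ABL1 (289, 232 and 189 CPM) had this order too. The orphan receptor ESRRB fell to 2.95 ± 1.25 CPM in resistant cells, against 20.96 ± 6.49 CPM in sensitive cells (SD, n = 3 each; edgeR adjusted p = 4.01e-04).

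The nuclear-encoded partners of the mitochondrial subunits did not follow the mitochondrial mRNAs across the resistant libraries. The median of 82 nuclear respiratory chain subunits, relative to the sensitive mean, was −0.52, −0.27 and 0.07 on the log2 scale in resistant replicates 1, 2 and 3, against −0.17, −0.11 and 0.28 in sensitive replicates 1, 2 and 3. For the 13 mitochondrial mRNAs it was 1.07, 0.18 and −1.22 in resistant and −0.12, 0.01 and 0.07 in sensitive libraries. The resistant libraries were thus ordered oppositely by the nuclear and the mitochondrial subunits. That order was not particular to the nuclear subunits. In resistant replicates 1, 2 and 3 the median was −0.49, −0.19 and 0.21 for mitochondrial ribosomal proteins. It was −0.20, −0.09 and 0.20 for translation factors and −0.31, −0.22 and 0.24 for markers of mitochondrial mass. Sensitive replicate 3 was the highest sensitive library for each of these lists as well (0.28, 0.19 and 0.20). In the fit over all 6 libraries 2 nuclear subunits rose (2.44%) and 5 fell (6.10%), below the 9.83% and 13.1% of all genes, and without both libraries numbered 3 there were 6 higher and 34 lower of 83 tested, where 21.2% of all genes were higher and 22.9% lower. COX4I1, a nuclear subunit of complex IV, measured 192, 224 and 237.5 CPM in resistant and 336, 334 and 404 CPM in sensitive libraries (edgeR adjusted p = 0.0149, lost without resistant replicate 1 at 0.0560 or resistant replicate 2 at 0.0907). COX5A, of the same complex, measured 56.3, 61.1 and 65.8 CPM in resistant and 38.1, 35.8 and 40.5 CPM in sensitive libraries (edgeR adjusted p = 0.00712, lost without resistant replicate 2 at 0.0520 or sensitive replicate 2 at 0.0588). Of 22 markers of mitochondrial mass, 1 rose, the import pore gene TOMM40, and 2 fell, GLUD1 and TOMM20, with a median log2 fold change of −0.07. These shares, 4.55% higher and 9.09% lower, were below the 9.83% and 13.1% of all genes. The calls of GLUD1 and TOMM20 were lost without resistant replicate 2 (edgeR adjusted p = 0.0646 and 0.130). That of TOMM20 was also lost without resistant replicate 1 (0.0658), sensitive replicate 1 (0.0769) or sensitive replicate 2 (0.0730).

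**Figure D4:**
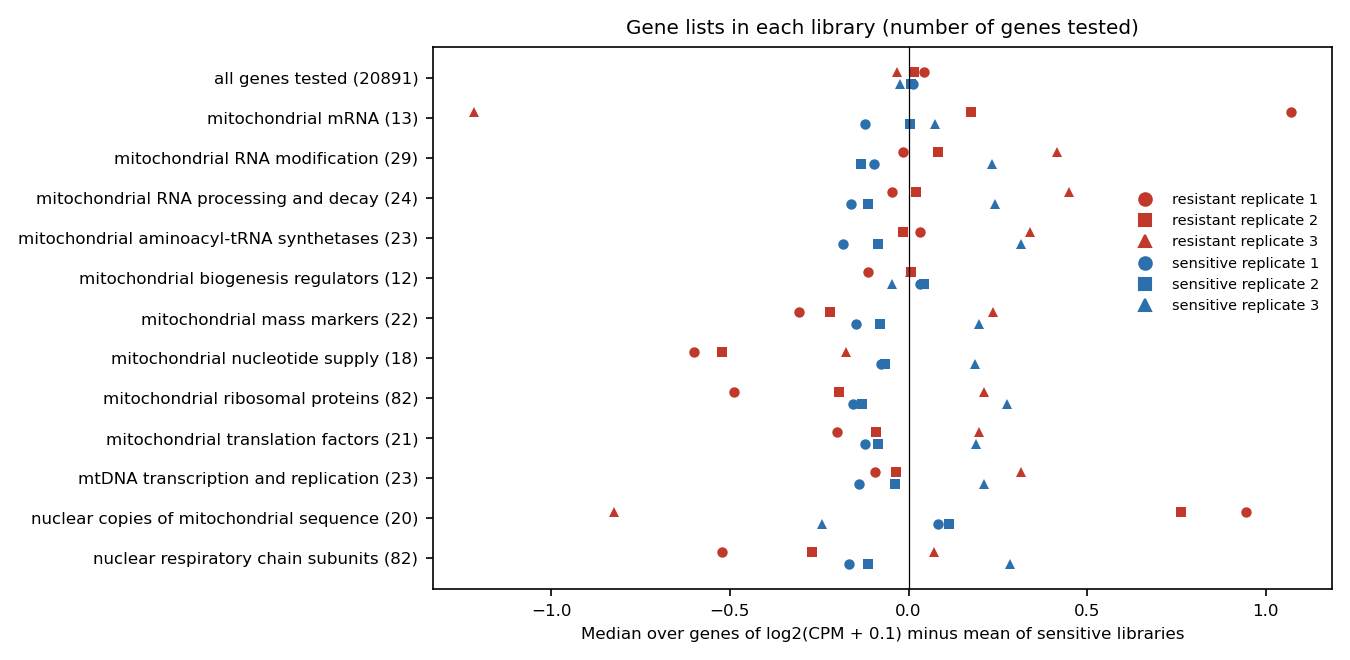
Median over the tested genes of each list of log2(CPM + 0.1) minus the mean of the sensitive libraries, with resistant libraries in red above sensitive libraries in blue and circles, squares and triangles for replicates 1, 2 and 3. For mitochondrial mRNA the resistant libraries run from −1.22 (replicate 3) to 1.07 (replicate 1), while for nuclear respiratory chain subunits they run from −0.52 (replicate 1) to 0.07 (replicate 3).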

How the data were processed

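RNA was measured in 6 libraries, 3 resistant and 3 sensitive. The authors deposited raw counts for each Ensembl gene. Trimmomatic 0.39, HISAT2 2.2.1, Subread 2.0.3 with featureCounts, and the GRCh38 build are named in the submitters' processing notes. Not given in the sources used here are the annotation release, the strand setting, how reads with several matches were treated, and whether the unit is a read or a fragment. Reads on genes that overlap, on antisense tRNAs and on nuclear copies are therefore uncertain. Symbols were found for 61369 of 61487 genes in a name table and positions for 58312 in GENCODE 29 (GRCh38), and sequences are GENCODE 29 transcripts.

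Titles number the libraries as biological replicates, but separate cultures are not stated, and the p-values then reflect only how far these libraries spread, which may be technical. All genes were filtered with filterByExpr, scaled with TMM factors and tested in edgeR 4.0.16 (R 4.3.3) by a two-sided quasi-likelihood F-test in its robust form, with Benjamini-Hochberg adjustment over 20891 genes. The SE is the log2 fold change divided by the square root of F. Ratios were tested with exact permutation tests (scipy 1.17.1). The edgeR, DESeq2 and limma-voom fits were tried on simulated counts with the same dispersion for every gene. That trial did not cover the ratio tests or a spread like that of the mitochondrial mRNAs among resistant libraries. The alternatives were other scalings and filters, DESeq2 1.42.0, limma-voom (limma 3.58.1), a replicate block, stricter thresholds, libraries left out, and nuclear copies added to their genes.

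The members and lists were chosen with earlier results of these data known. The genes named were all mRNAs and rRNAs, called and most counted tRNAs, 8 fixed regulators, and up to 4 called members per list by adjusted p. MTRNR2L12, MTATP6P1 and MTCO1P12 were chosen after their values were seen.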

Additional observations from a re-analysis of the deposited data

How the results depend on the processing

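Of the mitochondrial genes, 0 were called higher and 1 lower with edgeR. With each library left out in turn the counts ranged from 0 to 7 higher and from 1 to 2 lower. They were 5 higher and 2 lower with no filter, 7 higher without both libraries numbered 3 and 0 lower relative to mitochondrial mRNA. MT-TP kept its call in 18 of 19 alternatives, with log2 fold changes from −0.96 to −0.65 and adjusted p from 2.84e-04 to 0.462. Adjusted p below 0.01 and a limit of 1.5-fold left the counts at 0 and 1. With library totals alone the all-gene median went to 0.20, against 0.03, and MT-ND2 (0.0701) and MT-ND3 (0.0306), which changed sign, stayed below it. Both also changed sign without both libraries numbered 3 (0.25 and 0.21). MT-ND5 was at −0.12 relative to mitochondrial mRNA, −0.10 with the replicate block, −0.13 with limma-voom and −0.0835 with the block and scaling without mitochondrial genes. With single libraries left out, the log2 fold change ranged from −0.32 to 0.74 for MT-ND1, −0.66 to 0.24 for MT-ND2, −0.83 to 0.26 for MT-ND3, −0.0513 to 1.14 for MT-ND4, −0.11 to 1.00 for MT-ND4L, −0.56 to 0.47 for MT-ND5 and −0.46 to 0.57 for MT-ATP8; the cause was not tested. The log2 difference of the MT-RNR2 to MT-RNR1 ratio ranged from −0.9996 to −0.80, of MT-ND6 to MT-CYB from −1.40 to −0.86, of MT-RNR2 to MT-CO1 from −0.94 to −0.52 and of MT-ND1 to MT-CYB from −0.41 to −0.08. Same-numbered libraries deviated together with correlations of 0.202, 0.085 and 0.299. Resistant replicate 1 correlated more with sensitive replicate 2 (0.230) than with its own number. Resistant replicate 3 correlated at −0.177 and −0.235 with sensitive replicates 1 and 2, and sensitive replicate 3 at −0.312 and −0.0793 with resistant replicates 1 and 2. The numbers were not taken to pair the libraries, although those numbered 3 deviated together. With the replicate block 1 member was lower and 0 higher. Over all genes the block called 17.1% lower and 13.7% higher, against 13.1% and 9.83% without it. The block gave TFB2M an adjusted p of 0.0189, against 0.364 without it. The tRNAs other than MT-TP had at most 20 counts in a library.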
